A study of Mus musculus with 2 samples.

Results

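The 8 genes described here encode 4 cytokines of the interleukin 6 family (Il6, Osm, Lif and Il11) and 4 chains of their receptors (Il6ra, Il6st, Osmr and Lifr), out of 27998 genes in the matrices. They were taken by name, and each was found once in both matrices. The data are 2 single-cell RNA libraries of ear skin from ICR mice, an outbred strain, aged 7 to 8 weeks. One library is healthy control skin. The other is skin with allergic contact dermatitis (ACD), a T cell response to a hapten: dinitrofluorobenzene (DNFB) was painted on the back to sensitize the mice and later on the ears to elicit the reaction, and the ears were taken 60 hr afterwards. Both libraries went through the same collagenase D and DNase1 digestion and dead-cell removal, so cells that do not survive it are missing from both. How many mice gave each library is not stated in the sources used here. There is 1 library per condition, so no test between conditions was possible: each value is given with an exact 95% interval that covers counting error only, and a difference between the libraries may be one between 2 preparations.

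After the limits of 201 to 4999 genes, at most 25000 unique molecular identifiers (UMIs, each standing for 1 captured RNA molecule) and under 8% mitochondrial UMIs, 12213 control and 11665 ACD cells were kept, with medians of 6850 and 7447 UMIs. Cells were clustered without the 8 genes and named from marker genes. A level is the sum of a gene's UMIs over a class per 1000000 UMIs of that class (CPM), and a log2 ratio is ACD over control. Of the kept cells 2672 in control and 2016 in ACD lie in unnamed clusters, called here by number and leading genes, and 251 and 442 in clusters of mixed markers. Names of classes rest on markers only, so basophil, dFB (dermal fibroblast) and the rest are read as basophil-like, dFB-like and so on throughout. The libraries share 50 cell barcodes among those deposited.

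These 4 cytokines signal through gp130, the product of Il6st. IL-6 first binds IL-6 receptor alpha (Il6ra), IL-11 binds its own alpha chain, oncostatin M (Osm) uses the oncostatin M receptor (Osmr) with gp130, and leukemia inhibitory factor (Lif) uses Lifr with gp130. The receptors activate JAK kinases and STAT3, and SOCS3 switches the signal off. In skin IL-6 and oncostatin M are known from wound repair, acute-phase gene expression and inflammation. Cells that carry gp130 but not Il6ra lack their own binding chain for IL-6, but can respond to it through soluble receptor.

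On GRCm38 the genes lie on 6 chromosomes. Il6 (ENSMUSG00000025746) is at chr5:30013114-30019981 and Il11 (ENSMUSG00000004371) at chr7:4772373-4782859. Osm (ENSMUSG00000058755, chr11:4236420-4241026) and Lif (ENSMUSG00000034394, chr11:4257557-4272514) are neighbours on the same strand, 16530 bases apart. Il6ra (ENSMUSG00000027947) is at chr3:89864059-89913196 and Il6st (ENSMUSG00000021756) at chr13:112464070-112510086. Osmr (ENSMUSG00000022146, chr15:6813577-6874969) and Lifr (ENSMUSG00000054263, chr15:7090614-7197489) also share a chromosome, 215644 bases apart. In the annotation 1 of the 8, Il6ra, overlaps another gene model, Gm42809.

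The promoters of the ligands are shown because 3 of the 4 ligands were counted in ACD basophils and the fourth was not. RefSeq windows of GRCm38.p6 were at hand for 7 of the 8 genes. None was at hand for Osm, so its promoter was not searched. Each line below gives the 250 bases before a start site, 5′ to 3′ on the gene's strand, at chr5:30012864-30013113 for Il6, chr11:4257318-4257567 for Lif and chr7:4778142-4778391 for the inner of the 2 Il11 start sites. Capitals mark matches to AP-1 (TGANTCA) and to an NF-kB pattern (GGANTTTCC), searched on both strands.
Il6: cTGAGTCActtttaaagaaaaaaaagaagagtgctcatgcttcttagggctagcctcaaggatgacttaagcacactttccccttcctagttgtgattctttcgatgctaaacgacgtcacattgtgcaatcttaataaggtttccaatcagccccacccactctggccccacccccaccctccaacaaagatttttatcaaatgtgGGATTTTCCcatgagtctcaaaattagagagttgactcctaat
Lif: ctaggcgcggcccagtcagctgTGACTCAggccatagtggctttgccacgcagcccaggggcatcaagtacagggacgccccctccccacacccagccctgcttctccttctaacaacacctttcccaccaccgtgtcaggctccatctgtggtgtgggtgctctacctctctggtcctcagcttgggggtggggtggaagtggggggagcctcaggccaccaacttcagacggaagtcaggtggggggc
Il11: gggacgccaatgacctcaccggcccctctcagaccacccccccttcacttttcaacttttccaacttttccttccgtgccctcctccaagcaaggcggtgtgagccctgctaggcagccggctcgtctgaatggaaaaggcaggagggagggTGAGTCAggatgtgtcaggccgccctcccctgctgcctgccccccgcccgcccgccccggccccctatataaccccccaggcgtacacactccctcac
All 3 windows hold 1 AP-1 match, and Il6 alone of these also holds an NF-kB match. Of 32851 promoter windows of the same length, 6.75% hold the AP-1 letters and 1.07% the NF-kB letters. A STAT pattern (TTCNNNGAA), held by 7.02% of all windows, is in none of the windows of the 7 members searched. The outer Il11 window and the windows of the 4 receptor genes hold none of the 3 patterns. A match is a description of the letters only.

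Over all kept cells, Osm was the member with the largest difference between the libraries. It had 95 UMIs in control and 2765 in ACD, or 1.03 (0.834 to 1.26) against 27.7 (26.7 to 28.8) CPM, a log2 ratio of 4.75 (4.46 to 5.06). The other ligands were higher in ACD by less: the log2 ratio was 0.81 (0.6 to 1.02) for Lif, 0.65 (0.39 to 0.9) for Il11 and 0.38 (0.32 to 0.43) for Il6. One ACD cell held 80 of the 338 Il11 UMIs, and without it the Il11 ratio was 0.26 (-0.02 to 0.53), an interval that reaches 0. The 4 receptor chains were all lower in ACD, from -0.72 (-0.81 to -0.63) for Il6ra and -0.55 (-0.64 to -0.46) for Lifr to -0.41 (-0.45 to -0.38) for Il6st and -0.26 (-0.33 to -0.18) for Osmr.

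The make-up of the libraries differed too. Fibroblasts of the dermis (dFB) made up 25.3% of control cells and 10.1% of ACD cells, T, NK and innate lymphoid cells (T/NK/ILC) 6.83% and 28.7%, and basophils 0.0737% and 2.31%. When the ACD level of each class was weighted by the control library's share of UMIs, Il6st stood at 165 CPM against 163 in control and 122.5 as measured in ACD. Osmr weighted in this way stood at 39.3 against 35.5 in control, above and not below it. Il6ra stayed low, at 16.2 against 28.1. Osm stood at 2.49 CPM in place of the measured 27.7, against 1.03 in control. Il6 stood at 51.5 against 45.8, Lif at 4.01 against 3.08, Il11 at 3.86 against 2.17 and Lifr at 23 against 26.1. The difference from control was thus as large as the measured one or larger for Il6ra and, with the cell of 80 UMIs included, for Il11, smaller for Il6, Osm, Lif and Lifr, and of the other sign for Il6st and Osmr.

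**Figure D1:**
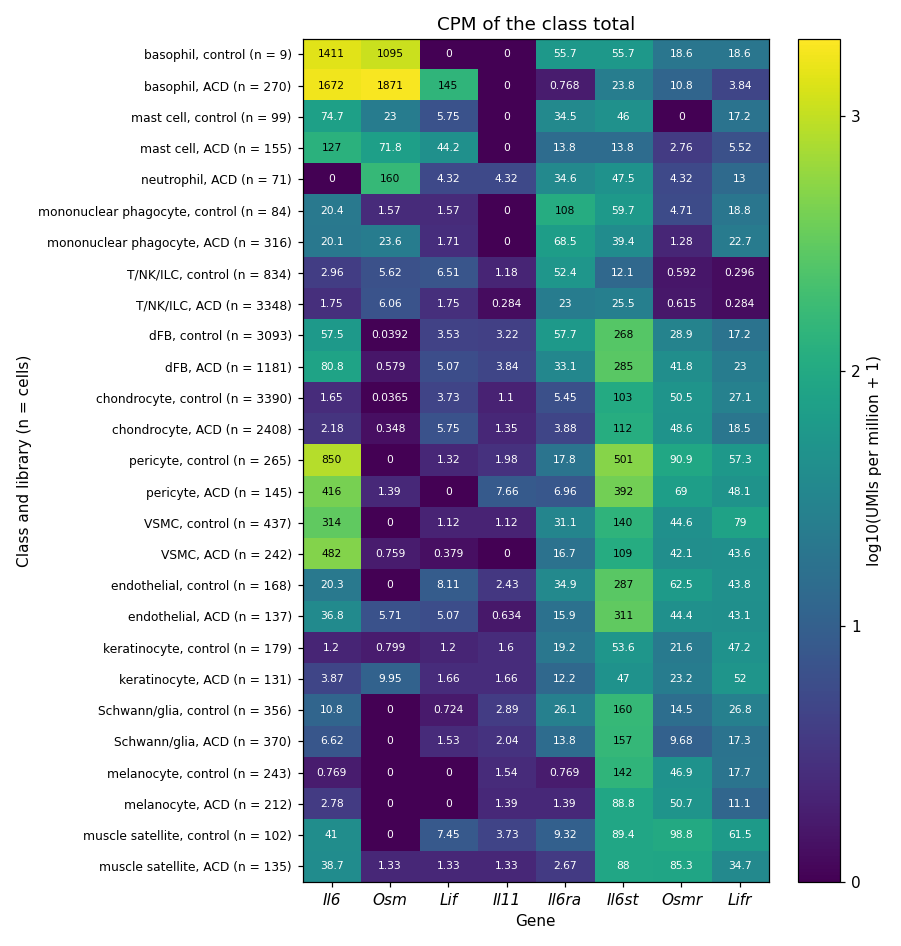
CPM for the 8 genes (columns) in each class and library (rows, with the number of cells). The colour is on a log10 scale, and the printed number is the level: Il6 and Osm stand out in basophils, Il6 in pericytes and vascular smooth muscle cells (VSMC), and Il6st is above 100 in most stromal classes.

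Oncostatin M is made by activated leukocytes. In ACD 2436 of its 2765 UMIs, 88.1%, lay in the 270 basophils. Their level was 1871 (1798 to 1947) CPM. The 9 control basophils held 59 UMIs, 1095 (834 to 1413) CPM and 62.1% of control Osm, so the gene was also high in the few basophils of healthy skin, and the log2 ratio within the class was 0.77 (0.4 to 1.17). It was 2.04 when cells were assigned by marker UMIs in place of clusters, and 0.38 as a mean over cells. The 9 control cells also carried markers of dFB at 2.23% of their UMIs, against 0.121% in ACD basophils and 3.96% in control dFB, and the part of this in the ratio was not tested. Outside basophils Osm went from 36 to 329 UMIs, 0.391 (0.274 to 0.541) to 3.35 (2.99 to 3.73) CPM. Of these UMIs T/NK/ILC held 19 in 834 control cells and 128 in 3348 ACD cells, at a level that did not differ beyond counting error. The part of the make-up in this difference was not tested.

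Most ACD basophils carried Osm. With each cell thinned to 2000 UMIs, a UMI was found in 219 of 266 cells (82.3%, 77.2 to 86.7%), and 91.1% of cells had one before thinning, at a median of 4028.5 UMIs. The share in chondrocytes, which stand here for a class without the gene, was 2 of 2386 cells (0.0838%, 0.0101 to 0.302%) at a median of 8937 UMIs. The UMIs were spread over many basophils: the highest cell held 41 of them, and 50 cells held the first 50% of the UMIs. Cells under 2000 UMIs, 4 of the ACD basophils, were left out of the thinned share.

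Other leukocytes held much less Osm. Neutrophils, 71 cells in ACD and 4 in control, had 159.9 (113 to 220.4) CPM in ACD, and 105 (67.0 to 156) without the highest cell. Mast cells had 23 (6.26 to 58.9) in control and 71.8 (46.9 to 105) in ACD, on 4 and 26 UMIs. Mast cells share several markers with basophils: those of the basophil list made up 0.259% and 0.344% of mast cell UMIs, and the part of basophil RNA in these values was not tested. Mononuclear phagocytes had 1 UMI in control and 55 in ACD, where the level was 23.6 (17.8 to 30.7) CPM and the share of ACD Osm 1.99%. Of these, 32 lay in 46 ACD cells of an unnamed sub-cluster led by Ccl21a and Il1a, where 1 cell held 17, and without that cell the class stood at 16.4 (11.6 to 22.5). In T/NK/ILC the level was 5.62 (3.39 to 8.78) and 6.06 (5.05 to 7.2), which did not differ beyond counting error. The 18 Osm UMIs of ACD keratinocytes came almost wholly from 1 cell, called a doublet by Scrublet, that held 17 of them.

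IL-6 is a cytokine of both stromal and blood-borne cells. In control the mural cells of blood vessels, pericytes and VSMC together, held 50.4% of Il6 UMIs and dFB 34.8%, while basophils held 1.8%. In ACD basophils held 2177 of 5915 UMIs, 36.8%, mural cells 31.6% and dFB 18.9%. Without basophils the whole-library level was 45 (43.6 to 46.4) in control and 38 (36.8 to 39.2) in ACD, lower and not higher. With each cell thinned to 2000 UMIs the basophil share of ACD Il6 was 60%.

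Within basophils the Il6 level did not differ beyond counting error between the libraries. It was 1411 (1111 to 1766) CPM over the 9 control cells and 1672 (1603 to 1744) over the 270 ACD cells, a log2 ratio of 0.24 (-0.08 to 0.59). It was 1.47 when cells were assigned by marker UMIs in place of clusters. In ACD 215 of 266 cells (80.8%, 75.6 to 85.4%) had an Il6 UMI after thinning, against 6 of 2386 cells (0.252%, 0.0923 to 0.546%) of chondrocytes, and 93.3% and 1.87% before it. Both Il6 and Osm were seen in 183 of the 266 thinned basophils, 68.8% (62.9 to 74.3%), and 66.5% would have both if the 2 were independent of each other. At least 1 of the 2 was seen in 251. Mast cells had 74.7 (39.8 to 128) in control and 127 (93 to 169) CPM in ACD, intervals that overlap.

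**Figure D2:**
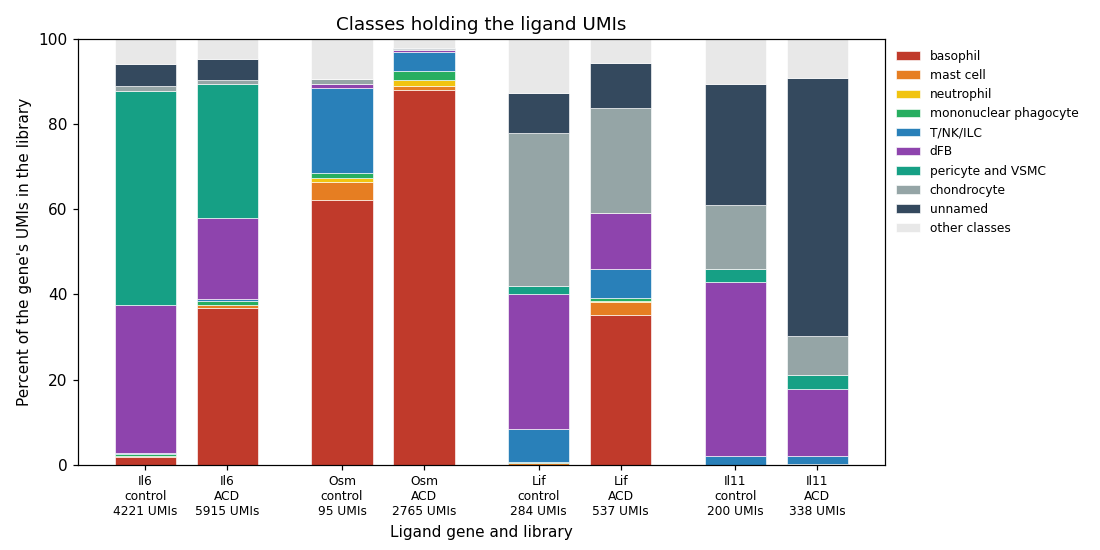
Percent of the UMIs of each ligand gene (vertical axis) held by each class in the control and ACD libraries (bars, with the number of UMIs). Basophils hold 88.1% of Osm, 36.8% of Il6 and 35.2% of Lif UMIs in ACD, and none of Il11.

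In mural cells, which wrap small vessels (pericytes) and larger ones (VSMC), Il6 differed in opposite directions between the libraries. Pericytes had 1291 UMIs in 265 control cells and 597 in 145 ACD cells, 851 (805 to 898) against 416 (383 to 451) CPM, a log2 ratio of -1.03 (-1.17 to -0.89). VSMC had 838 and 1271 UMIs, 314 (293 to 336) against 482 (456 to 509.5) CPM, a log2 ratio of 0.62 (0.49 to 0.75). Taken as 1 group the mural cells stood at 508 (487 to 530.4) in control and 459 (438 to 480.1) in ACD, a ratio of -0.15 (-0.24 to -0.06). Beside this, pericyte markers made up 1% of pericyte UMIs in control and 0.494% in ACD, and VSMC markers 1.84% and 2.71% of VSMC UMIs. The VSMC markers also made up 1.08% of pericyte UMIs in control and 1.44% in ACD, so in ACD the pericyte class carried them well above its own markers. Pericyte markers made up 0.399% and 0.339% of VSMC UMIs. Markers of dFB made up 0.618% of VSMC UMIs in control and 0.0895% in ACD, and the part of these marker differences in the Il6 ratios was not tested. Under a stricter filter on cells, where no pericyte class was resolved, the VSMC ratio was -0.09. After thinning, 116 of 258 cells (45%, 38.8 to 51.2%) of control and 39 of 144 cells (27.1%, 20 to 35.1%) of ACD pericytes had an Il6 UMI, and 145 of 432 cells (33.6%, 29.1 to 38.2%) and 86 of 241 cells (35.7%, 29.6 to 42.1%) of VSMC.

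The dFB were an intermediate source of Il6. Control dFB stood at 57.5 (54.6 to 60.6) CPM and ACD dFB at 80.8 (76.2 to 85.7). The log2 ratio was 0.49 (0.38 to 0.6), which turned to -0.29 when each library was clustered on its own. The UMIs were concentrated: the top 10% of cells held 77.2% of them in control and 74.8% in ACD, and 9.18% and 9.88% of thinned cells had one, against 20.8% and 27.2% before thinning. Among sub-clusters with at least 20 cells in both libraries the level ran from 9.72 CPM in control dFB 17 (led by Itgb4 and Chil1, 1 UMI) to 243 in control dFB 16 (6030408B16Rik and Vtn). In dFB 16 it was 243 (199 to 293) and 214 (173 to 262), in dFB 3 (Ptn and Comp) 112 (97.8 to 128) and 115 (102 to 129.8), and neither pair differed beyond counting error. In dFB 13 (Sfrp4 and C7) it was 122 (102 to 144) and 170.3 (144 to 200.5). The largest differences with an interval off 0 were in dFB 2 (Gap43 and Pi16) and dFB 8 (Hbb-bs and Hba-a1). In dFB 2 the level was 82.1 and 24.9, on 244 and 8 UMIs (log2 ratio -1.72, -2.95 to -0.72). In dFB 8 it was 29.4 and 76, on 47 and 21 UMIs (log2 ratio 1.37, 0.55 to 2.14). Of 9 sub-clusters with at least 20 Il6 UMIs, 6 were higher and 3 lower in ACD, with intervals off 0 for 2 and 1 of them. The Saa3, Cxcl9 and Cxcl10-led dFB 14, 461 cells in ACD and 2 in control, had 69.1 (62.9 to 75.7) CPM, below dFB 13 and dFB 16 of the same library.

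**Figure D3:**
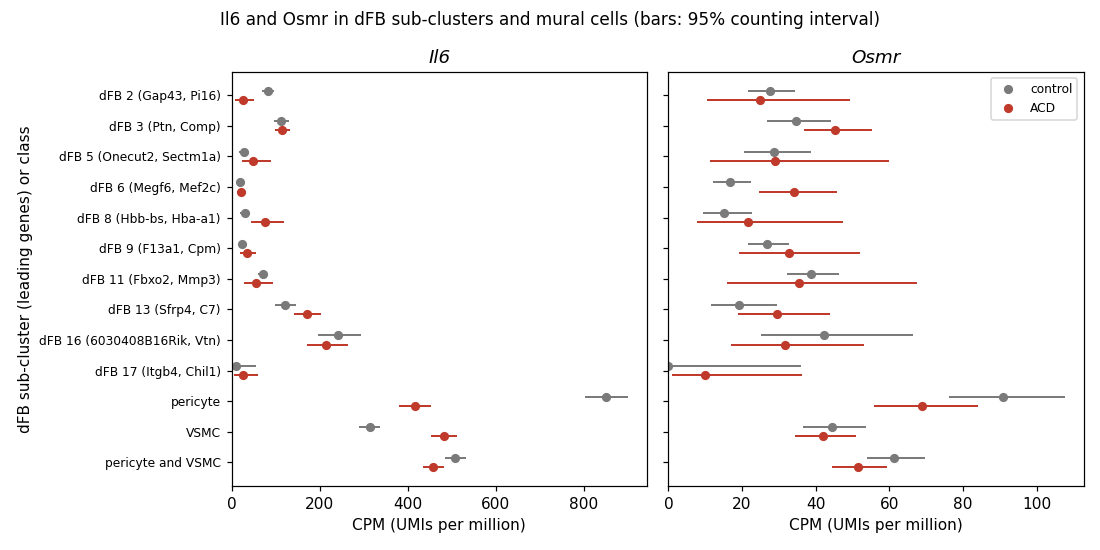
Il6 (left) and Osmr (right) in CPM in dFB sub-clusters with at least 20 cells in both libraries, in pericytes, in VSMC and in both mural classes together; points are levels and bars 95% counting intervals. Il6 is highest in pericytes and VSMC, whose control and ACD points swap order, and dFB 6 is the sub-cluster whose Osmr ratio has an interval off 0.

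Several other classes held little Il6. Endothelial cells had 20.3 (13.1 to 29.9) CPM in control and 36.8 (27.9 to 47.6) in ACD (log2 ratio 0.86, 0.16 to 1.6), and muscle satellite cells 41 (25.7 to 62.1) and 38.7 (25.9 to 55.5). Mononuclear phagocytes stood at 20.4 (10.9 to 34.9) and 20.1 (14.8 to 26.8), on 13 and 47 UMIs, of which the highest ACD cell held 16. T/NK/ILC, at 2.96 (1.42 to 5.44) and 1.75 (1.23 to 2.41), were not above chondrocytes, at 1.64 (1.2 to 2.2) and 2.18 (1.62 to 2.87), so these values are read as background and not as expression.

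Lif, a neighbour of Osm on chromosome 11 that acts on progenitor cells and on inflammation, was counted in ACD basophils but not in the few control ones. ACD basophils held 189 UMIs, 145 (125 to 167) CPM and 35.2% of ACD Lif. The 9 control basophils held 0. With a floor of 3 UMIs over that class, the ACD level by UMI counts is at least 2.61-fold higher. The exact interval of the log2 ratio starts at 1.07. Both bounds treat UMIs as independent and leave out the spread between cells. Unlike Osm and Il6, Lif lay in a minority of the ACD basophils: 34 of 266 cells (12.8%, 9.02 to 17.4%) had a UMI after thinning and 17.8% before it. In these, 10 cells held the first 50% of the UMIs and the highest held 23. In control 0 of 8 thinned basophils had a Lif UMI (0 to 36.9%). This interval includes the ACD share, so the shares of cells did not differ beyond counting error. Of the 34 thinned basophils with Lif, 31 also had Il6 and 30 also had Osm. Lif with Il6 was seen in 11.65% (8.06 to 16.13%) of the thinned ACD basophils, where independence gives 10.33%. For Lif with Osm it was 11.28% (7.74 to 15.71%), where independence gives 10.52%. Both intervals include the independent value, so Lif was not shown to go with Il6 or Osm in the same cells.

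Outside basophils Lif was low. Mast cells had 1 UMI in control and 16 in ACD, 44.2 (25.2 to 71.8) CPM. Chondrocytes had 3.73 (3.04 to 4.53) and 5.75 (4.81 to 6.82), a log2 ratio of 0.62 (0.24 to 1.01), with 16 of the 132 ACD UMIs in 1 cell, and 5.06 (4.18 to 6.06) without it. In dFB the level was 3.53 (2.84 to 4.34) and 5.07 (3.95 to 6.4). T/NK/ILC went the other way, from 6.51 (4.08 to 9.86) to 1.75 (1.23 to 2.41), a ratio of -1.9 (-2.69 to -1.06) on 22 and 37 UMIs. The make-up of this class differed: NK/ILC1 and CD8+ T cells, with 0 and 3 ACD Lif UMIs, were 5 and 8 cells in control and 609 and 548 in ACD, while unnamed sub-cluster 1, with 10 of the 22 control UMIs, was 206 and 89 cells. Within that sub-cluster Lif was at 14.3 (6.84 to 26.2) and 21 (9.61 to 39.9) CPM, and in CD4+ T cells at 37.4 (12.2 to 87.4) and 2.03 (0.816 to 4.18), on 5 and 7 UMIs. Without basophils the whole library stood at 3.08 (2.73 to 3.46) and 3.54 (3.18 to 3.93), which did not differ beyond counting error.

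IL-11 is known as a stromal cytokine of bone and of fibrosis. Its gene had 200 UMIs in control and 338 in ACD, the fewest of the ligands in ACD, and none in basophils of either library. Most of the difference lay in unnamed cluster 17, led by a (agouti), Igfbp3, Inhba and Tfap2c, with 165 control and 160 ACD cells. It held 11 UMIs in control and 126 in ACD, 9.81 (4.89 to 17.6) against 105 (87.6 to 125) CPM and 37.3% of ACD Il11. One ACD cell held 80 of them. Without it the cluster stood at 39.0 (28.5 to 52.0), still above control, and held 17.8% of the ACD Il11 UMIs left. Il6 in the same cluster went from 17.8 (10.9 to 27.5) to 57.6 (44.8 to 72.9), but another single cell held 48 of the 69 ACD UMIs and without it the level was 17.8 (11 to 27.2), that of control. In dFB Il11 was 3.22 (2.56 to 3.99) and 3.84 (2.87 to 5.02), and in chondrocytes 1.1 (0.74 to 1.56) and 1.35 (0.918 to 1.92).

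Among the receptor chains, Il6ra, which gives a cell its own binding site for IL-6, was lower in ACD in each of the 8 named classes with at least 50 UMIs of it. The log2 ratio ran from -1.19 to -0.49 with a median of -0.85. Of 4252 genes with 50 UMIs in all 8 classes, 10.1% were lower in ACD in all 8, with no fold asked. In dFB, which held 56.8% of control and 26.9% of ACD Il6ra UMIs, the level went from 57.7 (54.8 to 60.7) to 33.1 (30.2 to 36.3) CPM (log2 ratio -0.8, -0.95 to -0.65). In T/NK/ILC it went from 52.4 (45 to 60.7) to 23 (21 to 25.1) (log2 ratio -1.19, -1.44 to -0.93). The class with the highest CPM, mononuclear phagocytes, went from 108 (84.3 to 137) to 68.5 (58.3 to 80), with a ratio between -1.55 and -0.50 over the alternatives. Its cells lay in different sub-clusters: macrophages were 18 cells in control and 1 in ACD, unnamed sub-cluster 8 was 5 and 82, and unnamed sub-clusters 9 and 10 were 38 and 46 in ACD and 0 in control. VSMC (-0.9), endothelial cells (-1.14), Schwann cells and glia (-0.92), keratinocytes (-0.66) and chondrocytes (-0.49) had ratios of the same sign, with an interval that reached 0 in keratinocytes alone. In VSMC the markers of dFB, which carry Il6ra, were at 0.618% of UMIs in control and 0.0895% in ACD, and their part in the VSMC ratio was not tested. After thinning, 335 of 3060 cells (10.9%, 9.86 to 12.1%) of control dFB and 64 of 1164 cells (5.5%, 4.26 to 6.97%) of ACD dFB had a UMI, against 0.891% (0.602 to 1.27%) and 1.01% (0.645 to 1.49%) of chondrocytes. Before thinning the shares were 33.6% and 29%, at medians of 7591 and 11070 UMIs.

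**Figure D4:**
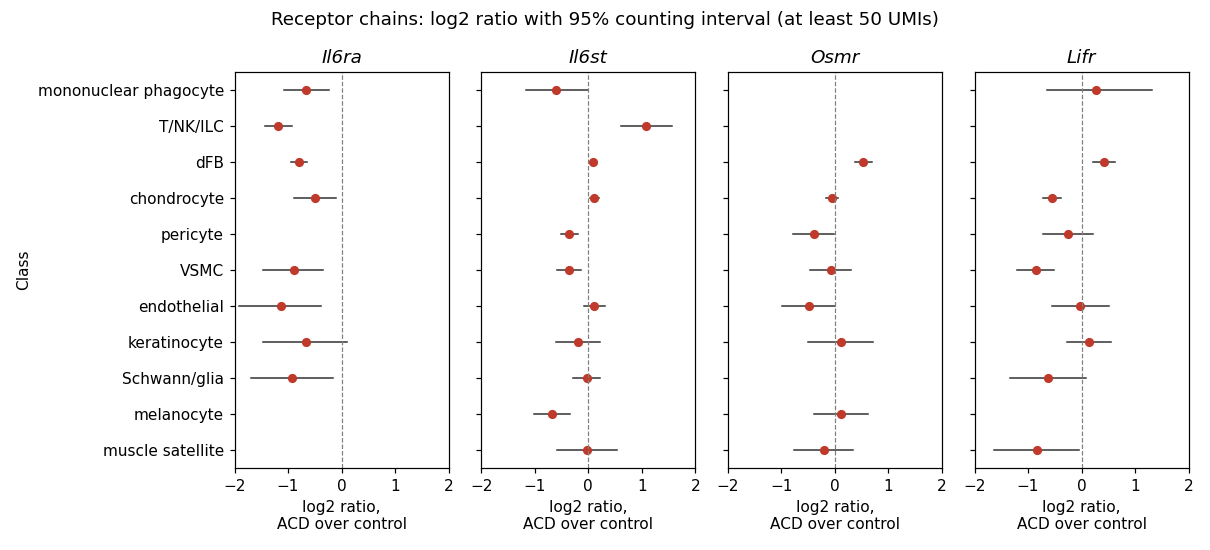
Log2 ratio of ACD over control (horizontal axis) for the 4 receptor chains in each class with at least 50 UMIs of the gene; points are ratios and bars 95% counting intervals. All 8 Il6ra points lie left of 0, while Il6st, Osmr and Lifr lie on both sides.

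The lower Il6ra was also seen within T cell sub-clusters. Of 5 named or numbered groups with at least 20 cells in both libraries and 20 UMIs, all 5 were lower with an interval off 0, but 1 of them, the δγT cells, pools 2 clusters. CD4+ T cells went from 112 (62.9 to 185) to 35.9 (29.9 to 42.8) CPM, on 15 UMIs in 36 control cells and 124 in 603 ACD cells. Regulatory T cells (Treg), with a control interval that overlaps that of CD4+ T cells, went from 149 (87 to 239) to 68.8 (59 to 79.9). Dermal δγT cells went from 34.6 (25.6 to 45.7) to 12.3 (8.64 to 17.1). Of their 2 clusters, cluster 2 (316 control and 219 ACD cells) stood at 37.2 (27.5 to 49.1) and 25.1 (17.1 to 35.7), a log2 ratio of -0.56 (-1.26 to 0.11) that did not differ from 0 beyond counting error. Cluster 6, led by Il17a, was 24 cells in control with 0 UMIs and 278 in ACD at 2.97 (0.964 to 6.93). Dendritic epidermal T cells (DETC) went from 55.6 (35.2 to 83.4) to 25.2 (14.4 to 40.9), and unnamed sub-cluster 1 (Bmp2 and Sncg) from 75.6 (56.7 to 99) to 42 (24.9 to 66.4). CD8+ T cells had 15.9 (12.1 to 20.4) in ACD, with 8 cells in control. The thinned shares of Treg did not show the difference, with 4 of 30 cells (13.3%, 3.75 to 30.7%) in control and 68 of 467 cells (14.6%, 11.5 to 18.1%) in ACD.

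In dFB sub-clusters Il6ra was lower in 7 of 9, with an interval off 0 in 4 and none higher with an interval off 0. Examples are dFB 6, from 56.4 (48.1 to 65.7) to 35.6 (26.3 to 47.2), and dFB 3, from 59.1 (48.9 to 70.9) to 40.1 (32.3 to 49.2). The highest control levels were in dFB 5 (Onecut2 and Sectm1a), at 85.2 (71.2 to 101), and dFB 2 (Gap43 and Pi16), at 82.4 (72.4 to 93.4), which had 57.8 (31.6 to 97) and 46.6 (26.1 to 76.8) in ACD. Cluster 17, the group with the Il11 difference, had 74.9 (59.7 to 92.7) and 60.9 (47.7 to 76.6), which did not differ beyond counting error. Langerhans cells, the dendritic cells of epidermis, had 122 (84.3 to 172) and 86.6 (61.3 to 119), with overlapping intervals.

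Il6st, the shared gp130 chain, was the most abundant member and differed little between the libraries in the stromal classes that held most of it. Control dFB had 6839 UMIs and ACD dFB 3938, or 268 (262 to 275) and 285 (276 to 294) CPM, a log2 ratio of 0.09 (0.03 to 0.14) that turned to -0.33 with each library clustered on its own. Endothelial cells had 287 (258 to 319) and 311 (284 to 339.6), and chondrocytes 103 (99.5 to 107) and 112 (108 to 116). Pericytes had the highest level of the named classes in both libraries, 501 (466 to 538) in control and 392 (360.4 to 426) in ACD (log2 ratio -0.35, -0.51 to -0.2), and melanocytes went from 142 (122 to 164) to 88.9 (74.1 to 106) (log2 ratio -0.68, -1.02 to -0.35). Over 11 named classes with at least 50 UMIs 7 ratios were below 0 and 4 above it.

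T/NK/ILC had the largest Il6st ratio of the 4 classes in which it was higher in ACD (the others are dFB, chondrocytes and endothelial cells), and Il6ra was lower in all 4. Il6st stood at 12.1 (8.71 to 16.5) CPM on 41 UMIs of control and at 25.5 (23.4 to 27.7) on 538 of ACD. The log2 ratio was 1.07 (0.61 to 1.56). It turned to -0.78 when cells were assigned by marker UMIs in place of clusters. Treg held 242 of the 538 ACD UMIs, at 96.3 (84.5 to 109) CPM against 52.7 (19.3 to 115) in control on 6 UMIs. CD4+ T cells had 20.9 (16.3 to 26.3) in ACD, DETC 39.4 (25.5 to 58.1) and δγT cells 3.77 (1.88 to 6.75). Treg made up 39 of 834 control and 494 of 3348 ACD cells of the class. Within sub-clusters no ratio had an interval off 0, and the part of the make-up in the class difference was not tested.

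**Figure D5:**
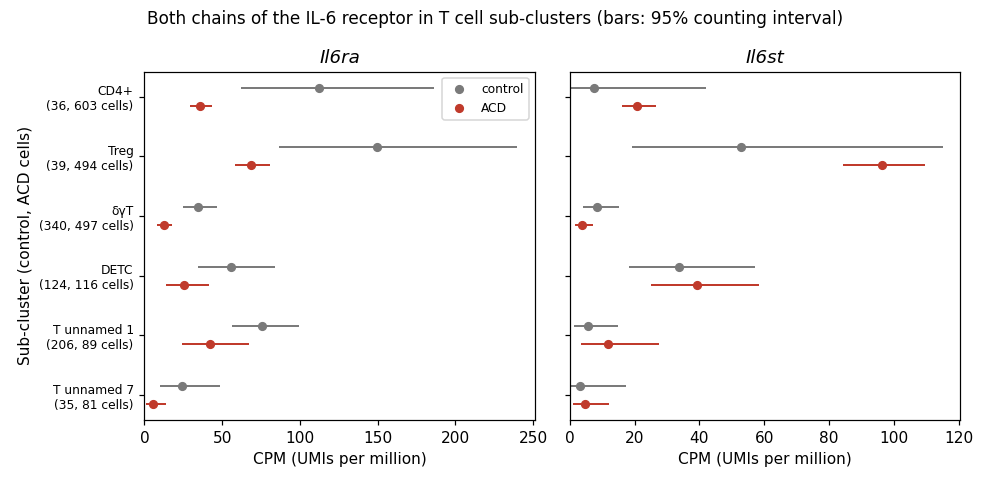
Il6ra (left) and Il6st (right) in CPM in T cell sub-clusters with at least 20 cells in both libraries, control in grey and ACD in red; points are levels and bars 95% counting intervals. Il6ra is lower in ACD in each sub-cluster shown, where δγT pools 2 clusters, and Il6st in control rests on few UMIs (6 in Treg).

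Osmr, the chain that binds oncostatin M, was low in leukocytes and present in stroma. In T/NK/ILC it was 0.592 (0.0717 to 2.14) and 0.615 (0.328 to 1.05) CPM and in mononuclear phagocytes 4.71 (0.972 to 13.8) and 1.29 (0.265 to 3.76). ACD basophils, the main source of Osm, had 14 Osmr UMIs, 10.8 (5.88 to 18) CPM, and the 9 control basophils 1. It was highest in muscle satellite cells, 98.8 (74 to 129) and 85.3 (65.7 to 109), and pericytes, 90.9 (76.4 to 107) and 69 (56 to 84), and the intervals of these neighbours overlapped in each library. The ACD over control ratio of pericytes was -0.4 (-0.79 to -0.02) and that of endothelial cells -0.49 (-0.98 to -0.01). The largest share of its UMIs lay in chondrocytes, 42.2% in control, at 50.5 (47.9 to 53.3) and 48.6 (45.8 to 51.5). The dFB were higher in ACD, 28.9 (26.9 to 31.1) against 41.8 (38.4 to 45.3), a log2 ratio of 0.53 (0.37 to 0.69), or 0.19 with each library clustered on its own. In dFB 6 it went from 16.8 (12.5 to 22.3) to 34.1 (25 to 45.5) (log2 ratio 1.02, 0.41 to 1.63), the only one of 9 sub-clusters with an interval off 0. In the ACD dFB 14 it was 48.7 (43.6 to 54.4). Cluster 17 went from 8.02 (3.67 to 15.2) to 33.4 (23.8 to 45.5), on 9 and 40 UMIs.

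Lifr, which binds leukemia inhibitory factor, was also a stromal and epidermal gene. VSMC went from 79 (68.7 to 90.4) to 43.6 (36 to 52.4) CPM (log2 ratio -0.86, -1.2 to -0.52) and chondrocytes from 27.1 (25.2 to 29.1) to 18.5 (16.8 to 20.3) (log2 ratio -0.55, -0.73 to -0.38). In dFB as a class it was higher in ACD, from 17.2 (15.6 to 18.9) to 23 (20.6 to 25.7) (log2 ratio 0.42, 0.21 to 0.63). Of the 318 ACD UMIs 207 lay in dFB 14, at 31.4 CPM, a sub-cluster of 461 ACD and 2 control cells. Of 6 sub-clusters with at least 20 cells in both libraries and 20 Lifr UMIs, 4 were higher and 2 lower in ACD. The interval was off 0 for 1 of the lower and 0 of the higher. The part of the make-up in the dFB ratio was not tested. Keratinocytes, at 47.2 (39 to 56.5) and 52 (42 to 63.6), pericytes, at 57.3 (45.9 to 70.7) and 48.1 (37.4 to 60.8), and endothelial cells, at 43.8 (32.9 to 57.2) and 43.1 (33.5 to 54.7), did not differ between the libraries beyond counting error. Among leukocytes it was near 0 in T/NK/ILC, with 1 UMI in control and 6 in ACD, while mononuclear phagocytes stood at 18.8 (9.74 to 32.9) and 22.7 (17 to 29.7) CPM. Of their 12 control UMIs 8 lay in 18 macrophages, at 78.8 (34 to 155). Of their 53 ACD UMIs 22 lay in unnamed sub-cluster 5 (Mgl2 and Lmo1), at 21.7 (13.6 to 32.9). The highest ACD level of the sub-clusters was in 38 cells of an unnamed sub-cluster led by Siglech, Klk1 and Cox6a2, with 25 UMIs or 94.4 (61.1 to 139) CPM in 18 of its cells. These cells fell in the phagocyte class but took no name from its marker lists. Control had no cell of this sub-cluster.

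Both chains of a receptor were rarely seen in the same cell at 2000 UMIs. For Osmr with Il6st, pericytes had both in 27 of 258 thinned control cells (10.5%, 7.01 to 14.9%) and 11 of 144 in ACD (7.64%, 3.88 to 13.3%), where independence gives 9.02% and 5.09%. For dFB the shares were 2.55% (2.02 to 3.17%) and 3.61% (2.61 to 4.85%). For Il6ra with Il6st, dFB had both in 147 of 3060 control cells (4.8%, 4.07 to 5.62%) and 27 of 1164 in ACD (2.32%, 1.53 to 3.36%). ACD Treg had both in 9 of 467 cells (1.93%, 0.885 to 3.63%) where independence gives 2.71%. For Lifr with Il6st, control pericytes had both in 22 of 258 (8.53%, 5.42 to 12.6%). Over whole classes the interval lay above the independent value in 2 cases. They were Lifr with Il6st in control endothelial cells, 9 of 155 (5.81%, 2.69 to 10.7%, against 2.47%), and Il6ra with Il6st in ACD T/NK/ILC, 18 of 3240 (0.556%, 0.33 to 0.877%, against 0.277%). The intervals were not corrected for the many pairs of class and library compared. The T/NK/ILC class also pools unlike sub-clusters. Its Treg lay below the independent value, as given above, and its CD4+ T cells above it, at 1.19% (0.479 to 2.43%) against 0.393%. A cell without a UMI at this depth is not a cell without the receptor.

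Set against all genes, few members passed a 2-fold difference. With 10 CPM added to both levels and genes of at least 50 UMIs, a gene past a log2 ratio of 1 in ACD over control counts as past the fold. In dFB 0 of 7 measured members were past it in either direction, where 1% of 11771 genes were higher and 0.153% lower. In T/NK/ILC it was 0 of 4, beside 1.54% of 10330 genes higher and 1.42% lower. In chondrocytes it was 0 of 7, beside 0.287% of 12183 genes higher and 0.00% lower. In VSMC it was 0 of 5, beside 0.930% of 7955 genes higher and 1.63% lower. In pericytes 1 of 4, Il6, was lower, beside 1.42% of 6354 genes higher and 1.62% lower. In mononuclear phagocytes 1 of 5, Osm, was higher, beside 3.1% of 5800 genes higher and 2.66% lower. The medians of the measured members were 0.15, -0.23, 0.03, -0.33, -0.35 and -0.01 in that order of classes, beside -0.02, -0.08, -0.02, -0.06, -0.05 and 0.03 over all genes. Il6ra, though not past the fold, ranked 11683 of 11771 genes from the highest ratio in dFB and 10125 of 10330 in T/NK/ILC.

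The other genes of the pathway were 42 in 6 lists, read by the same rule. List genes named here that were not past the fold were chosen for their role, after their values were seen. Their levels are given as control against ACD, with the ratio after adding 10 CPM. Stat3, the main transducer of gp130, was not past the fold in any class, with 167 against 183 CPM (log2 ratio 0.12) in dFB and 113 against 197 CPM (log2 ratio 0.75) in T/NK/ILC.

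Of 6 inhibitors, Socs3 was past the fold in mononuclear phagocytes, at 116 against 328 CPM (log2 ratio 1.42), and none was in the other 5 classes. In dFB all 6 were measured, with Socs3 at 654 against 857 CPM (log2 ratio 0.39) and Socs1, an inhibitor of interferon signalling too, at 133 against 239.5 CPM (log2 ratio 0.8). The proteases Adam10 and Adam17, of which the latter sheds IL-6 receptor from cells, were not past the fold in any of the 6 classes. Adam17 in T/NK/ILC stood at 78.7 against 60.7 CPM (log2 ratio -0.33), and in dFB at 41.6 against 40.6 CPM (log2 ratio -0.03).

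None of the other ligands and receptors of the family was past the fold. Among the other ligands Clcf1, a cardiotrophin-like cytokine, stood at 8.16 against 7.82 CPM (log2 ratio -0.03) in dFB. In T/NK/ILC Clcf1 was measured at 48.9 against 27.4 CPM (log2 ratio -0.66), and Ebi3, a subunit of IL-27 and IL-35, at 1.18 against 9.7 CPM (log2 ratio 0.82). Of 5 other receptors Il11ra1, the alpha chain for IL-11, stood at 29.9 against 29.8 CPM (log2 ratio -0.01) in dFB and 72.4 against 38.6 CPM (log2 ratio -0.76) in chondrocytes. Cntfr, the receptor of ciliary neurotrophic factor, stood at 57.5 against 42 CPM (log2 ratio -0.38) in dFB.

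The 15 target genes of STAT3 and of the acute phase held most of the calls. This list was chosen with earlier results of these data known, so its counts are a description only. Of all genes 1% were higher past the fold in dFB, 0.287% in chondrocytes, 1.42% in pericytes and 3.1% in mononuclear phagocytes. In VSMC 1.63% were lower past it. In dFB 5 of 14 measured were higher and none lower, with a list median of 0.40 beside -0.02 for all genes. They were Saa3, an acute-phase apolipoprotein, at 9.61 against 1494 CPM (log2 ratio 6.26), Lcn2, which binds bacterial siderophores, at 1.61 against 200 CPM (log2 ratio 4.18), the protease inhibitors Timp1 at 81.4 against 363 CPM (log2 ratio 2.03) and Serpina3n at 81.6 against 272 CPM (log2 ratio 1.62), and Hp, which binds hemoglobin, at 0.392 against 18.5 CPM (log2 ratio 1.45). These genes also answer other cytokines. The remaining 9, such as Cebpb at 1554 against 1635 CPM (log2 ratio 0.07) and Pim1 at 325 against 332 CPM (log2 ratio 0.03), were not past the fold. In chondrocytes 1 of 11 was higher, Lcn2 at 3.69 against 36 CPM (log2 ratio 1.75). In pericytes 2 of 9 were higher (Timp1 and Serpina3g). In VSMC 1 of 9 was lower, Tnfaip6, at 209 against 22.8 CPM (log2 ratio -2.74). In mononuclear phagocytes 3 of 7 were higher (Bcl3, Hp and Serpina3g), and in T/NK/ILC 0 of 10 were past the fold in either direction.

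Likeness of pattern was measured as Pearson's r of log2(level + 10) over 26 profiles, 14 named classes by library with at least 50 cells, among 13392 genes with at least 200 UMIs. The profiles share 2 libraries, so r is a description. Most like Lif were Mcpt8, a basophil protease (0.951), Csrp3 (0.904) and Il4 (0.901), and most like Osm were RP23-6I17.1 (0.963), Rab44 (0.947) and Lilr4b (0.925). The ACD basophils are the only basophil profile among the 26, and Mcpt8 was among the markers that named them. For Il6 they were Bcar3 (0.795), Ptgir, the prostacyclin receptor (0.791), and Amigo2 (0.784). For Il11, low in every profile, they were Mmp11 (0.766), Mettl24 (0.758) and Sim2 (0.734). For the receptors they were Kcnk6, Ccdc109b and Il1r2 for Il6ra (0.747, 0.729 and 0.728), Arhgap23, Lama4 and Zcchc14 for Il6st (0.889, 0.888 and 0.880), Tns2, Hspb8 and Rbfox2 for Osmr (0.892, 0.875 and 0.871) and Atf3, Luzp1 and Pdgfa for Lifr (0.841, 0.832 and 0.815).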

How the data were processed

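Single-cell RNA libraries of mouse ear skin, 1 control and 1 ACD, were prepared with a droplet 3′ kit. The authors deposited UMI counts per gene and barcode, made with Cell Ranger 3.1.0 per the file headers and mapped to mm10. The study's methods name another Cell Ranger release. Deposited counts were used unchanged. The libraries held 12895 and 13163 barcodes, of which 12213 and 11665 stayed within the limits (201 to 4999 genes, up to 25000 UMIs, mitochondrial share below 8%), with 92188895 and 99649023 UMIs in all. Scrublet marked 560 and 392 of them as doublets, which were kept, and removed in an alternative.

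Counts were clustered with scanpy 1.11.5 (2000 variable genes, left out of which were the 8 members, the pathway genes and other cytokine, T cell and inflammatory genes, 30 components, 20 neighbours, Leiden resolution 1) into 36 clusters, of which 8 stayed unnamed. A name needed 3 markers in 10% of cells. The thresholds for names were set after the clusters were seen. The members, the marker lists and the pathway lists were chosen with earlier results of these data known. Genes named were the 8 members, list genes of at least 50 UMIs past a log2 ratio of 1, and the 3 genes most like each member.

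Levels have exact Poisson intervals, ratios exact conditional binomial intervals and shares of cells exact Clopper-Pearson intervals, all at 95%, computed with numpy 2.4.6 and scipy 1.17.1. PCR duplicates are removed by UMIs, and intervals do not cover variation between animals. For shares each cell was thinned to 2000 UMIs. Where control had no UMI, a floor of 3 UMIs per class was used. The functions were tested on simulated Poisson counts. These hold no spread between cells beyond counting error, so the simulation cannot show that the intervals are wide enough for such spread. There were 15 alternatives, covering filters, doublets, clustering, scaling, thinning and the added constant. Values without the cell of highest count, and the δγT clusters one by one, were added after seeing the data. Results for some genes of the pathway lists are not reported here.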

Additional observations from a re-analysis of the deposited data

Results flagged for a closer look

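The ratio of ACD over control of 3 members differed in direction between cell classes, by at least 1.5-fold each way and with counting intervals that lie apart. With 1 library per condition none of these differences between classes was tested over samples. Il6 was lower in ACD pericytes (log2 ratio -1.03) and higher in VSMC (0.62) and in endothelial cells (0.86). Marker shares of both mural classes differed between the libraries, and taken as 1 group their Il6 ratio was -0.15. Lif was lower in T/NK/ILC (-1.90) and higher in chondrocytes (0.62) and in mast cells (2.94, from 1 and 16 UMIs). T/NK/ILC is a class of different make-up in the 2 libraries, and in its unnamed sub-cluster 1 the ratio was 0.56 (-0.92 to 2.01). A single ACD chondrocyte held 16 of 132 Lif UMIs. Without it the chondrocyte levels, 3.73 in control and 5.06 CPM in ACD, were under 1.5-fold apart. Il6st was higher in T/NK/ILC (1.07, but -0.777 with gates on marker UMIs) and lower in melanocytes (-0.68) and in mononuclear phagocytes (-0.60). The T/NK/ILC and phagocyte classes both differ in make-up between the libraries. Within T/NK/ILC sub-clusters no Il6st ratio had an interval off 0. With 1 or both ratios under 1.5-fold, Lifr and Osmr also had ratios of opposite sign with intervals apart, as in dFB (0.42 and 0.53) against VSMC for Lifr (-0.86) and endothelial cells for Osmr (-0.49). In dFB most ACD Lifr UMIs lay in dFB 14, which had few control cells. No dFB sub-cluster compared was higher for Lifr with an interval off 0.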

How the results depend on the processing

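Of 219 recomputed values over 35 results, 166 stayed within counting error of the reported value, 48 moved and 5, all of reported ratios with an interval off 0, changed direction. The cause of these was not tested. With each library clustered separately the log2 ratio in dFB was -0.285 for Il6 and -0.326 for Il6st, both opposite to the reported sign, and 0.192 for Osmr. Over all deposited barcodes the Il6 ratio in dFB was 0.635. The Il6 ratio in VSMC was -0.0904 under the stricter filter on cells. The Il6st ratio in T/NK/ILC was -0.777 with gates on marker UMIs, and the Lifr ratio in VSMC was 1.44 at resolution 0.5, where it rests on 3 and 11 UMIs. The basophil share of ACD Il6 was 32.6% over all barcodes, 40.1% under the stricter filter and 60% after thinning, and the phagocyte share of ACD Osm was 0.5% after thinning. At resolution 0.5 mural classes held 0.0676% of ACD Il6. The Il6 ratio in basophils was 1.47 with gates on marker UMIs and -0.152 as a mean over cells, and the Osm ratio there was 2.04 and 0.384. The Il6ra ratio lay between -1.30 and -1.01 in T/NK/ILC and between -1.43 and -0.567 in dFB, and the basophil share of ACD Osm between 86.4% and 93.2%. Alternatives in which a class was not found give no value for it. No paired analysis was possible because there is 1 library per condition, and for the same reason no replicate could be left out. Levels under 3 UMIs per class are not resolved at this depth.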
